A study of Mus musculus with 10 samples.

Results

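The 10 genes described here encode subunits of NF-kB and regulators that restrain it or respond to it: Nfkb1, Nfkb2, Rela, Relb, Nfkbia, Nfkbie, Tnfaip3, Tnip1, Birc3 and Tnfaip2. They were taken by gene symbol from the 23479 entries of the expression table, and each symbol matched 1 entry. RNA of clone 4T1-T, which was grown from 1 cell of the mouse mammary carcinoma line 4T1, was sequenced after infection with short hairpin RNAs (shRNAs). Controls carried a hairpin to Renilla luciferase (shRenilla), and the other groups carried 1 of 2 hairpins to Serpine2 (shSerpine2-1, shSerpine2-2) or 1 of 2 hairpins to Slpi (shSlpi-1, shSlpi-2). Each of these 5 groups had 2 libraries, A and B, so every infected line, controls included, comes from the same clone and expresses a hairpin. The labels do not say whether A and B are separate cultures, so each p-value reflects the spread among libraries alone, and part of that spread may be technical.

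NF-kB is a family of dimeric transcription factors that inhibitor proteins hold in the cytoplasm until a signal from a cytokine or pattern recognition receptor leads to the inhibitors' destruction. In the canonical route Rela pairs with the processed product of Nfkb1, and in the non-canonical route Relb pairs with that of Nfkb2. Many NF-kB target genes encode inhibitors of the pathway, which closes a feedback loop. Slpi, a secreted inhibitor of neutrophil elastase and other serine proteases, has been described as a brake on NF-kB in leukocytes. Serpine2, also called protease nexin-1, is a secreted serine protease inhibitor.

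The promoter windows of 5 members are shown because they differ in whether they hold the sequence that NF-kB dimers bind, the kappa-B consensus. Each window runs from 250 bases before to 50 bases after a RefSeq gene start (GRCm38.p6), is written 5′ to 3′ on the gene's own strand, and has each match to the consensus on either strand in capitals.
Nfkb2, chr19:46304487-46304786, plus strand: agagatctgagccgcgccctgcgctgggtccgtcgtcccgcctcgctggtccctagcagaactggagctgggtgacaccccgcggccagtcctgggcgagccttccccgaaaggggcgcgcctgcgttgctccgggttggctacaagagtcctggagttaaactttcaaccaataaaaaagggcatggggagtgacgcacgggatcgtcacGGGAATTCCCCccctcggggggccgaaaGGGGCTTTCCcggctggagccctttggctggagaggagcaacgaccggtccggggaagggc
Tnip1, chr11:54962891-54963190, minus strand: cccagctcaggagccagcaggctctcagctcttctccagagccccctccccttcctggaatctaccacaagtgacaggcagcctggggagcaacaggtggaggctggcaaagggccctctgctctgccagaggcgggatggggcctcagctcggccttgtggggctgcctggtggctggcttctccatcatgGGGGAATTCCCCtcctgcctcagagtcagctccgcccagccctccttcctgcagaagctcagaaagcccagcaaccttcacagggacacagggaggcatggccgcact
Nfkbie, chr17:45555450-45555749, plus strand: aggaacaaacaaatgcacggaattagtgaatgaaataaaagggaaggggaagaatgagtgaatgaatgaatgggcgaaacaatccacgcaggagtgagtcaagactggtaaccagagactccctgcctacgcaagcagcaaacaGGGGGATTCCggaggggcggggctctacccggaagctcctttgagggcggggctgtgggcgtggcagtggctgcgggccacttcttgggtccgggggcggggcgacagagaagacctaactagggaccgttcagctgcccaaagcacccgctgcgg
Nfkbia, chr12:55492598-55492897, minus strand: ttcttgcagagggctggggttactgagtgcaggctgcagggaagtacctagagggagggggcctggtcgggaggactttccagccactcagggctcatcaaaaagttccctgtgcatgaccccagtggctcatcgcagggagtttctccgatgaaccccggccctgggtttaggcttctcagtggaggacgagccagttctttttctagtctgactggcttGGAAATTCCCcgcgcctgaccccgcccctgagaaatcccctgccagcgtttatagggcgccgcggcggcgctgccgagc
Tnfaip2, chr12:111442411-111442710, plus strand: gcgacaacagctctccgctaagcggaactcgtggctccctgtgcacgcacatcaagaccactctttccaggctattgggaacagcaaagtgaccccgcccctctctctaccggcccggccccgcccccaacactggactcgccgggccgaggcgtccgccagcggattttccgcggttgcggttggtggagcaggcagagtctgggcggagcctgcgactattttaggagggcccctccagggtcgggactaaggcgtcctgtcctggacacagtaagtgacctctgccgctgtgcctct
The longer runs of capitals in Nfkb2 and Tnip1 join overlapping matches on both strands, and Nfkb2 has a further match nearer the start. A match was found in 5 of the 8 members that have a window (Nfkb2, Nfkbia, Nfkbie, Tnfaip3 and Tnip1) and not in those of Rela, Birc3 and Tnfaip2. It was present in 4.51% of all 32851 windows, in 6.04% of the 9062 tested genes that have one, and in 10 of the 21 other textbook NF-kB target genes that have one. All 3 windows of Nfkb2 and 1 of the 2 windows of Tnfaip3 held a match. Nfkb1 and Relb had no entry. A match describes these letters and does not show that a factor binds there.

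All members are protein-coding genes in GENCODE M21, the source of the positions here (GRCm38). The subunit genes lie at chr3:135584655-135691547 (Nfkb1, minus strand), chr19:46304320-46312385 (Nfkb2, plus), chr19:5637483-5648130 (Rela, plus) and chr7:19606217-19629438 (Relb, minus). The inhibitor genes lie at chr12:55489410-55492647 (Nfkbia, minus) and chr17:45555703-45563169 (Nfkbie, plus). The other regulators lie at chr10:19000910-19015657 (Tnfaip3, minus), chr11:54910785-54962917 (Tnip1, minus), chr9:7848699-7873186 (Birc3, minus) and chr12:111442469-111455018 (Tnfaip2, plus).

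Depth was 15877431 to 24026620 reads per library, and values below are normalized counts, meaning reads divided by the library's size factor. Target levels followed the labels. Slpi was 1189 and 1313 in shRenilla, 145 and 147 in shSlpi-1 and 60.9 and 75.8 in shSlpi-2, and Serpine2 averaged 3201 in shRenilla, 134 in shSerpine2-1 and 501 in shSerpine2-2. The knockdowns were not separate from each other: Slpi was 326 and 414 in shSerpine2-1 but 1111 and 1218 in shSerpine2-2, and Serpine2 averaged 1336 and 1642 in shSlpi-1 and shSlpi-2. The shSlpi-2 libraries stood apart, with 6.88% and 6.91% of their reads on the ribosomal RNA gene Rn45s against 0.881% to 1.96% elsewhere, and with the widest gap between libraries (chi-square per degree of freedom of 10.9 against 1.55 to 2.76). All 6 epithelial markers were present, summing to 21140 to 21757 in shRenilla and 31016 to 31095 in shSlpi-2, the lowest and highest groups. Leukocyte markers summed to 264 to 365 in all libraries, but Cd68 (88.9 to 146) and Cd14 (118 to 178) made up most of that sum. Of these markers 5 of 10 reached 10 in any library, and Ptprc, the common leukocyte antigen, ran from 0 to 7.06. Fibroblast markers summed to 459 to 904, highest in shRenilla, but 1 gene, Pdgfra (436 to 896), made up nearly all of that sum, and Col1a1 reached at most 20.3. The highest leukocyte sum was that of shSlpi-2 B alone (365), with 302 in shSlpi-2 A and 304 in shSlpi-1 B. Both shSlpi-2 libraries had the highest endothelial sums (39.6 and 72.9). Fewer cells of a type and less RNA per cell cannot be told apart in such bulk libraries, and the part of these markers and of Rn45s in the results below was not tested.

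Levels were also put on the RPKM scale (reads per kilobase of exon, divided by the library's depth), with all annotated exons of a gene joined as its length. On it Tnfaip2 and Tnfaip3 were highest among the members in the control cells, at 25.8 ± 0.112 and 25.2 ± 0.516 (SD, n = 2). Whether Tnfaip2 and Tnfaip3 differ on this scale was not tested. Rela followed at 13.9 ± 0.494. Nfkb1, Nfkbie, Tnip1, Nfkbia, Nfkb2 and Birc3 lay together between 6.55 and 7.68, and Relb was lowest at 1.30 ± 0.163. Among 11563 genes ranked on this scale, Tnfaip2 stood at percentile 84.2 and Relb at percentile 19.7. On this scale Rela stood above its partner gene Nfkb1, and Relb below Nfkb2. The first order depends on the lengths used, 12061 bases for Nfkb1 and 3072 for Rela. In reads Nfkb1 was higher, at 1584 and 1556 in shRenilla A and B against 718 and 731 for Rela. Which of these genes had more RNA molecules was not tested.

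**Figure D1:**
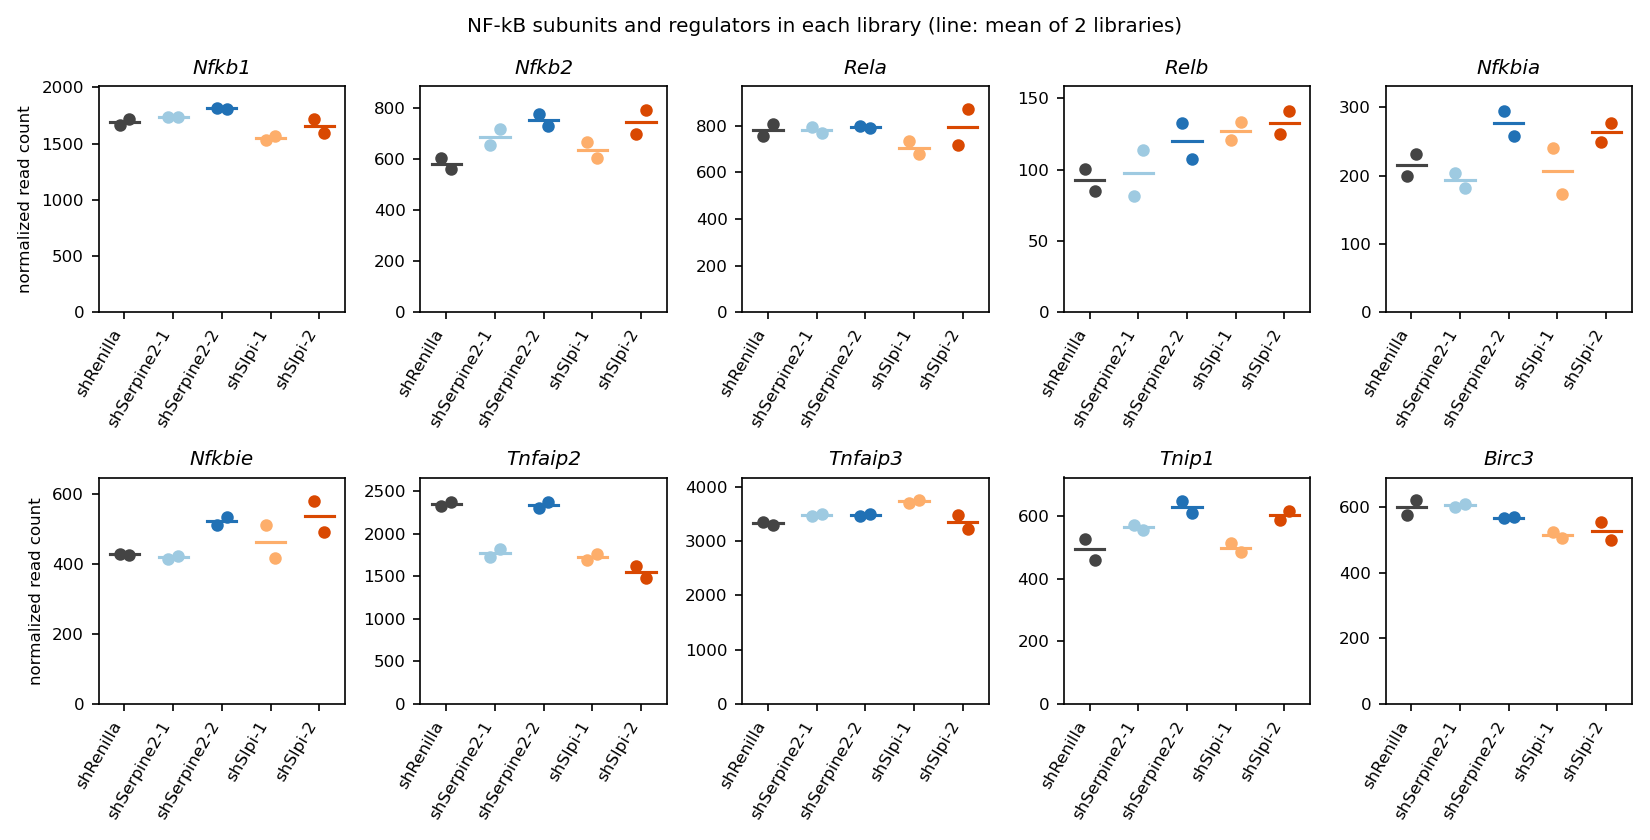
Normalized counts of the 10 members in each of the 10 libraries, 1 panel per gene, with a point per library and a line at each group's mean of 2 libraries. Tnfaip2 falls into a high level in shRenilla and shSerpine2-2 and a lower one in the other 3 groups, and Nfkb2 is lowest in shRenilla.

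With both Slpi hairpins pooled, 4 of the 10 members differed from shRenilla. Nfkb2 and Relb, the pair of the non-canonical route, rose, and Birc3 and Tnfaip2 fell. Of all 12299 genes tested, 34.8% changed in this comparison (16.5% rose and 18.3% fell), so the share of members that changed was near that of all genes. The groups did not overlap for the same 4 members, against 40.1% of all genes. The members' median log2 fold change was 0.097, beside -0.0055 for all genes tested. Since Serpine2 was also lower in these lines, the part of each target cannot be told apart. Without both shSlpi-2 libraries, this comparison becomes that of shSlpi-1 with shRenilla, with the spread taken from the remaining libraries. In that fit 5 of 10 members changed, beside 27.0% of all genes. Relb (0.46, limma adjusted p = 0.0407), Birc3 (-0.22, limma adjusted p = 0.0211) and Tnfaip2 (-0.44, limma adjusted p = 1.82e-08) passed. Nfkb1 (-0.13, limma adjusted p = 0.0454) and Tnfaip3 (0.17, limma adjusted p = 0.00199) passed as well, and Nfkb2 did not. The fold changes are those of shSlpi-1 in the fit of all libraries. There Relb, Birc3 and Nfkb1 did not pass with shSlpi-1 (limma adjusted p = 0.0844, 0.0634 and 0.124), and 2 of 10 members changed. With each hairpin line averaged to 1 unit, an alternative chosen after seeing the data, shRenilla was a single unit. Limma then called no member and no other gene tested, Slpi included. Values called risen or fallen passed an adjusted p of 0.05 in limma, and fold changes are on the log2(normalized count + 1) scale.

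With both Serpine2 hairpins pooled, 3 of the 10 members differed from shRenilla: Nfkb2 and Tnip1 rose and Tnfaip2 fell. Of the single lines, Tnfaip2 passed with shSerpine2-1, where Slpi was lower too, and not with shSerpine2-2. The share among all genes tested was 21.5% (10.7% rose and 10.8% fell). Libraries of both groups did not overlap for 4 of 10 members, against 37.7% of all genes. The median of the members was 0.085, beside -0.0014 for all genes. With each hairpin line as 1 unit, limma again called no member and no other gene tested. Both this comparison and the one for Slpi use the shRenilla libraries.

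Among the subunits, Nfkb2, which encodes the precursor processed in the non-canonical route, was lowest in the controls. Its normalized counts in libraries A and B were 602 and 559.7 in shRenilla, 654 and 717 in shSerpine2-1, 776 and 728 in shSerpine2-2, 665 and 603 in shSlpi-1, and 699 and 793 in shSlpi-2. All 8 knockdown libraries were above both controls, though shSlpi-1 B exceeded shRenilla A by little. The log2 fold change was 0.24 ± 0.07 (SE) for the Slpi hairpins (limma adjusted p = 0.0156) and 0.31 ± 0.07 for the Serpine2 hairpins (limma adjusted p = 0.00681). Single hairpins differed in whether they passed: in shSlpi-2 the mean was higher by 28.4% (limma adjusted p = 0.00247) and shSerpine2-2 by 29.5% (limma adjusted p = 0.00371), while shSlpi-1 gave 0.13 and shSerpine2-1 0.24, with limma adjusted p = 0.333 and 0.0802. The pooled Slpi call rested on single libraries. It was lost without shRenilla B (0.19, limma adjusted p = 0.184), without shSlpi-1 A (0.21, limma adjusted p = 0.0557) and without both shSlpi-2 libraries (0.13, limma adjusted p = 0.208). Without shRenilla B the Serpine2 call was lost too (0.25, limma adjusted p = 0.138), as was that of shSerpine2-2 alone (0.32, limma adjusted p = 0.0606), which was also lost without shSerpine2-2 A (0.33, limma adjusted p = 0.0528). The rise with shSlpi-2 passed in all 19 alternative analyses.

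Relb, the transactivating partner of Nfkb2, was the most weakly expressed member. It stood at 100.1 and 84.8 in shRenilla, 81.3 and 114 in shSerpine2-1, 133 and 107 in shSerpine2-2, 121 and 133 in shSlpi-1, and 125 and 141 in shSlpi-2. All 4 Slpi hairpin libraries lay above both controls, and the shSerpine2-1 libraries fell on either side of them. The Slpi hairpins gave a log2 fold change of 0.49 ± 0.15 (limma adjusted p = 0.0195), with 0.46 for shSlpi-1 (limma adjusted p = 0.0844) and 0.52 for shSlpi-2 (limma adjusted p = 0.0246). The Serpine2 hairpins gave 0.21 (limma adjusted p = 0.340). Slpi hairpins exceeded Serpine2 hairpins by 0.27, which did not pass (limma adjusted p = 0.138). Leaving out shRenilla B ended the Slpi call (0.37, limma adjusted p = 0.214), as did leaving out shSlpi-1 B (0.45, limma adjusted p = 0.0549) or using no filter on low genes (limma adjusted p = 0.0579). The shSlpi-2 call was lost without shRenilla B (0.40, limma adjusted p = 0.182), without shSlpi-2 B (0.43, limma adjusted p = 0.0911) and with no such filter (limma adjusted p = 0.0584).

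The canonical subunits moved less. Nfkb1, whose precursor yields the DNA-binding partner of Rela, was at 1669 and 1714 in shRenilla, 1741 and 1737 in shSerpine2-1, 1815 and 1811 in shSerpine2-2, 1529 and 1566 in shSlpi-1, and 1719.5 and 1597 in shSlpi-2. Serpine2 hairpin libraries were all above, and 3 of 4 Slpi hairpin libraries below, both controls. Against shRenilla neither target passed, at -0.079 for Slpi and 0.070 for Serpine2 (limma adjusted p = 0.217 and 0.319). Set against each other, the Slpi hairpins were lower than the Serpine2 hairpins by a log2 fold change of -0.15 ± 0.04 (limma adjusted p = 0.0146), with no overlap of libraries. That call was lost without shSlpi-1 A or any of the 4 Serpine2 hairpin libraries, with limma adjusted p up to 0.0624.

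Rela, the main transactivating subunit of the canonical route, was 756 and 805 in shRenilla, 795 and 769 in shSerpine2-1, 797 and 790.3 in shSerpine2-2, 733 and 678 in shSlpi-1, and 715 and 872 in shSlpi-2. The shSlpi-2 libraries spanned the whole range of the control and Serpine2 libraries. No comparison of Rela passed the test. The log2 fold change was -0.065 ± 0.073 (SE) for the Slpi hairpins and 0.013 for the Serpine2 hairpins (limma adjusted p = 0.528 and 0.919).

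Nfkbia and Nfkbie encode the inhibitors IkB-alpha and IkB-epsilon, which bind NF-kB dimers in the cytoplasm. Nfkbia stood at 200.2 and 231 in shRenilla, 204 and 182 in shSerpine2-1, 295 and 259 in shSerpine2-2, 241 and 173 in shSlpi-1, and 249 and 277 in shSlpi-2. Libraries of shSerpine2-2 and shSlpi-2 were above both controls, and shSlpi-1 A and B lay on opposite sides of them. Neither target passed against shRenilla (Slpi 0.11, Serpine2 0.10, limma adjusted p = 0.548 and 0.608). The Serpine2 hairpins differed from each other, shSerpine2-2 being higher than shSerpine2-1 by 0.52 ± 0.14 (limma adjusted p = 0.0237). This difference was lost without any 1 of the 4 Serpine2 hairpin libraries (0.42 to 0.61, limma adjusted p up to 0.185) and with no filter on low genes (limma adjusted p = 0.0966).

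For Nfkbie the levels were 429 and 425 in shRenilla, 414 and 421 in shSerpine2-1, 509 and 535 in shSerpine2-2, 511 and 415 in shSlpi-1, and 579 and 491 in shSlpi-2. Both libraries of shSerpine2-2 and of shSlpi-2 exceeded the controls, both of shSerpine2-1 were below them, and those of shSlpi-1 fell on either side. Nfkbie rose with shSlpi-2 (0.32 ± 0.10, limma adjusted p = 0.0168) and with shSerpine2-2 (0.29 ± 0.10, limma adjusted p = 0.0424). For the targets as a whole, the values were 0.21 for Slpi (limma adjusted p = 0.0666) and 0.13 for Serpine2 (limma adjusted p = 0.316). Between the Serpine2 hairpins the difference was 0.32 ± 0.10 (limma adjusted p = 0.0422). The shSlpi-2 call was lost without shRenilla A (0.33, limma adjusted p = 0.0722), shRenilla B (0.31, limma adjusted p = 0.0844) or shSlpi-2 A (0.20, limma adjusted p = 0.119). Both other calls were lost without any 1 of the 6 libraries of shRenilla and the Serpine2 hairpins, with limma adjusted p up to 0.215 for shSerpine2-2 against shRenilla and 0.242 between the hairpins. Dropping the filter on low genes ended them as well (limma adjusted p = 0.133 and 0.120), as did quantile normalization (limma adjusted p = 0.0860 and 0.108).

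Tnfaip3, Tnip1 and Birc3 act on ubiquitin chains in the signalling complexes upstream of the inhibitors. Tnfaip3, a ubiquitin-editing enzyme that shuts off NF-kB signalling, stood at 3353 and 3299 in shRenilla, 3452 and 3501 in shSerpine2-1, 3463 and 3493 in shSerpine2-2, 3704 and 3763 in shSlpi-1, and 3472 and 3225 in shSlpi-2. The shSlpi-1 libraries were highest of all, and those of shSlpi-2 lay on either side of the controls. It rose with shSlpi-1 by 0.17 ± 0.05 (limma adjusted p = 0.0274) and gave 0.0087 with shSlpi-2 (limma adjusted p = 0.906). The difference between these hairpins was -0.16 ± 0.05 for shSlpi-2 against shSlpi-1 (limma adjusted p = 0.0267). The rise with shSlpi-1 was lost without any 1 of the 6 libraries of shRenilla, shSerpine2-1 and shSlpi-1 (limma adjusted p up to 0.165) and with no filter on low genes (limma adjusted p = 0.0526). The difference between hairpins was lost without shSlpi-1 A, shSlpi-1 B or shSlpi-2 B (limma adjusted p up to 0.142), and when the fit held only those 4 libraries (limma adjusted p = 0.159).

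Tnip1 encodes a ubiquitin-binding partner of the Tnfaip3 protein. Its levels were 527 and 462 in shRenilla, 574 and 557 in shSerpine2-1, 649 and 612 in shSerpine2-2, 514 and 485 in shSlpi-1, and 589 and 617 in shSlpi-2. Every library of shSerpine2-1, shSerpine2-2 and shSlpi-2 was above both controls, and shSlpi-1 lay between the controls. Tnip1 rose with the Serpine2 hairpins (0.27 ± 0.07, limma adjusted p = 0.0110) and with shSlpi-2 alone (0.29 ± 0.08, limma adjusted p = 0.00883), and shSlpi-2 exceeded shSlpi-1 by 0.27 ± 0.08 (limma adjusted p = 0.0218). With shSerpine2-2 alone it rose by 0.35 ± 0.08 (limma adjusted p = 0.00439). Without shRenilla B, the lower control, these calls against shRenilla were lost: 0.18 for Serpine2 (limma adjusted p = 0.230), 0.19 for shSlpi-2 (limma adjusted p = 0.132) and 0.26 for shSerpine2-2 (limma adjusted p = 0.0848). Leaving out shSerpine2-2 A also ended the call of shSerpine2-2 (0.31, limma adjusted p = 0.0592). The difference between the Slpi hairpins was lost without shSlpi-1 B (0.23, limma adjusted p = 0.150) or shSlpi-2 B (0.24, limma adjusted p = 0.0579), and when only those 4 libraries were fitted (limma adjusted p = 0.0875).

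Birc3, a ubiquitin ligase of TNF receptor complexes and itself an NF-kB target, was 577 and 621 in shRenilla, 601 and 609.5 in shSerpine2-1, 566 and 569.7 in shSerpine2-2, 524 and 506 in shSlpi-1, and 556 and 499 in shSlpi-2. The 4 Slpi hairpin libraries were the 4 lowest of the 10. Birc3 fell with the Slpi hairpins by -0.20 ± 0.07 (limma adjusted p = 0.0279), and the Serpine2 hairpins gave -0.030 (limma adjusted p = 0.790). Slpi hairpins were lower than Serpine2 hairpins by -0.17 ± 0.05 (limma adjusted p = 0.0404). The first call was lost without shRenilla A (-0.25, limma adjusted p = 0.0511), shRenilla B (-0.15, limma adjusted p = 0.259), shSlpi-1 B (-0.19, limma adjusted p = 0.0679) or shSlpi-2 B (-0.16, limma adjusted p = 0.0510), and in a fit of the compared groups alone (limma adjusted p = 0.0700). The second was lost without any of 9 libraries (limma adjusted p up to 0.116), in a fit of the compared groups alone (limma adjusted p = 0.0515), with quantile normalization (limma adjusted p = 0.0592) and with total-read scaling (limma adjusted p = 0.0717).

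Tnfaip2, a TNF-induced gene whose product takes part in forming membrane nanotubes and which is a target of NF-kB rather than a brake, had the widest range of group means among the members on the log2 scale, though single libraries of Relb and Nfkbia spanned a wider fold. It stood at 2329 and 2373 in shRenilla, 1726 and 1817 in shSerpine2-1, 2299.6 and 2370.1 in shSerpine2-2, 1692 and 1764 in shSlpi-1, and 1624 and 1474 in shSlpi-2. The 4 libraries of shRenilla and shSerpine2-2 lay between 2299.6 and 2373, and the other 6 between 1474 and 1817. Tnfaip2 was 1.44-fold lower with the Slpi hairpins than in shRenilla, a log2 fold change of -0.52 ± 0.05 (limma adjusted p = 1.10e-06). Each Slpi hairpin passed, at -0.44 for shSlpi-1 (limma adjusted p = 8.83e-05) and -0.60 for shSlpi-2 (limma adjusted p = 7.02e-07). None of these calls was lost when any 1 library was left out.

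The Serpine2 hairpin lines differed in Tnfaip2. It fell with shSerpine2-1 by -0.41 ± 0.06 (limma adjusted p = 2.99e-04) and gave -0.010 with shSerpine2-2 (limma adjusted p = 0.915), and shSerpine2-2 exceeded shSerpine2-1 by 0.40 ± 0.06 (limma adjusted p = 4.19e-04). The pooled Serpine2 value, -0.21 ± 0.05 (limma adjusted p = 0.00775), averages these hairpins and was lost without shRenilla A (-0.22, limma adjusted p = 0.0516) or shRenilla B (-0.20, limma adjusted p = 0.109). The levels of Slpi itself split the same libraries: 1111 to 1313 in the 4 libraries with high Tnfaip2 and 60.9 to 414 in the 6 with low Tnfaip2. Slpi fell in shSerpine2-1 by -1.76 on the log2 scale (limma adjusted p = 1.96e-07) and gave -0.10 in shSerpine2-2 (limma adjusted p = 0.554). These levels are placed side by side as a description, and what links them was not tested.

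**Figure D2:**
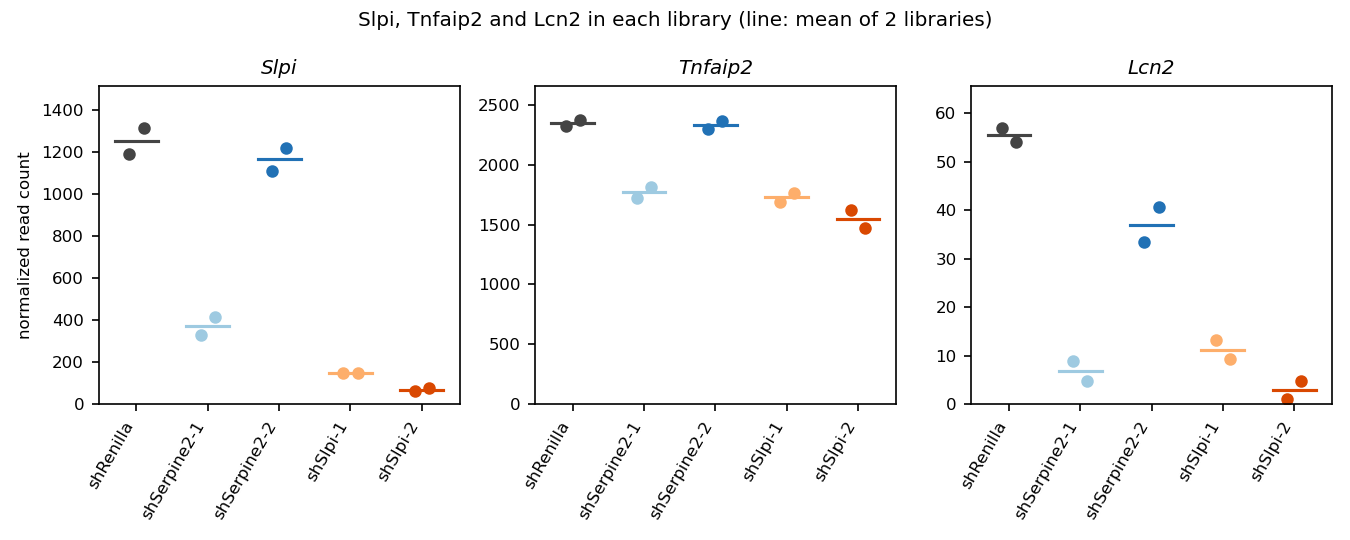
Normalized counts of Slpi, Tnfaip2 and Lcn2 in the 10 libraries, 1 point per library, with a line at the mean of each group of 2 and the y axis in normalized read counts. In all 3 panels shRenilla and shSerpine2-2 are the 2 highest groups.

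The 5 genes of 10536 whose group means were most like those of Tnfaip2, by the root mean square difference of the 5 centred log2 means, were St3gal1 and Rtp4 (0.021 and 0.025), Slc5a3 (0.038), Gnpda1 (0.050) and Gm14124 (0.056). St3gal1, a sialyltransferase, averaged 5682 in shRenilla and 5550.4 in shSerpine2-2, and 4252, 4059 and 3795 in shSerpine2-1, shSlpi-1 and shSlpi-2. Its likeness rests on 5 group means and was chosen from all genes, so it is a description.

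Read by single hairpin, the number of members called was near the share of all genes called in each line. Against shRenilla, 2 of 10 members changed with shSlpi-1 (Tnfaip3 and Tnfaip2) where 17.5% of all genes changed (7.65% rose, 9.88% fell). With shSlpi-2 it was 5 of 10 (Nfkb2, Relb, Nfkbie, Tnip1 and Tnfaip2) where 42.4% of all genes changed (20.4% rose, 21.9% fell). For shSerpine2-1 it was 1 of 10 (Tnfaip2) beside 10.5% of all genes (5.09% rose, 5.38% fell), and for shSerpine2-2 it was 3 of 10 (Nfkb2, Nfkbie and Tnip1) beside 27.5% (14.2% rose, 13.4% fell). Libraries did not overlap with those of shRenilla for 7 of 10 members in shSlpi-1 (60.2% of all genes), 7 in shSlpi-2 (66.7%), 6 in shSerpine2-1 (57.8%) and 8 in shSerpine2-2 (68.9%), so such separation is common with 2 libraries a group. Nfkb2, Nfkbie and Tnip1, all of which have a kappa-B match in the windows printed above, passed with shSlpi-2 and with shSerpine2-2. Nfkbia and Tnfaip3, which have a match too, passed with neither. Of the members without a match, Tnfaip2 passed with shSlpi-2, and Rela and Birc3 passed with neither line. Of those without a window, Relb passed with shSlpi-2 and Nfkb1 with neither. Whether a match goes with a call was not tested. The calls share the shRenilla libraries.

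**Figure D3:**
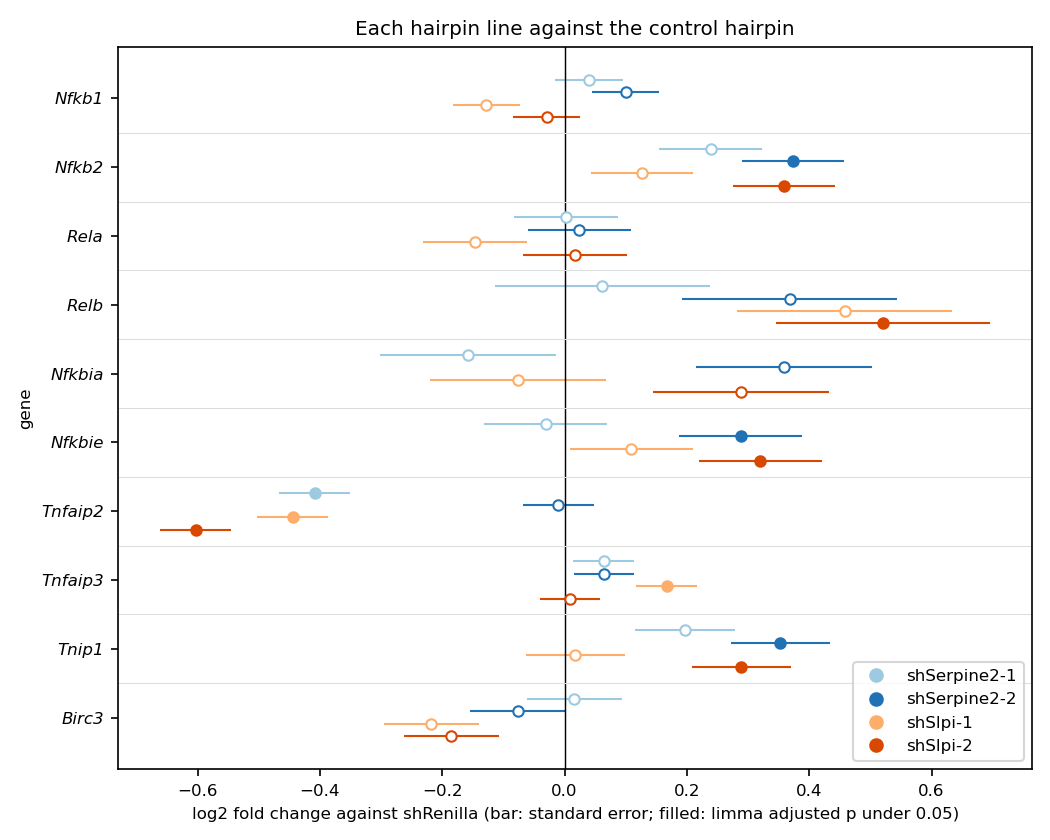
Log2 fold change of each member (rows) in each of the 4 knockdown lines against shRenilla (x axis), with bars of 1 standard error and filled points where the limma adjusted p was under 0.05. Tnfaip2 lies between -0.60 and -0.41 in 3 lines and at -0.010 in shSerpine2-2, and Nfkb2, Nfkbie and Tnip1 have filled points in shSerpine2-2 and shSlpi-2.

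Hairpins to the same target were also compared directly. Between the Slpi hairpins 2 of 10 members differed (Tnip1 and Tnfaip3), as did 26.1% of all genes (12.3% higher and 13.7% lower with shSlpi-2), and libraries did not overlap for 6 of 10 (58.1% of all genes). Between the Serpine2 hairpins 3 of 10 differed (Nfkbia, Nfkbie and Tnfaip2), as did 14.7% of all genes (7.69% higher and 6.98% lower with shSerpine2-2). All 3 were higher with shSerpine2-2, and libraries did not overlap for 7 of 10 members (64.1% of all genes). Slpi hairpins against Serpine2 hairpins gave 3 of 10 (Nfkb1, Tnfaip2 and Birc3), all lower with Slpi hairpins, where 17.5% of all genes differed (7.21% higher and 10.3% lower). With each line as 1 unit, limma called none of these members and no other gene tested. Libraries did not overlap for Nfkb1 and Birc3, 2 of 10, beside 8.83% of all genes.

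The wider pathway was read from 7 lists of 93 genes, 74 of which passed the filter on low values. With the Slpi hairpins 10 rose, 17 fell and 47 did not pass, with a median log2 fold change of 0.0075. With the Serpine2 hairpins 7 rose, 12 fell and 55 did not pass, with a median of 0.012. Of all genes tested, 16.5% rose and 18.3% fell with the Slpi hairpins, and 10.7% rose and 10.8% fell with the Serpine2 hairpins, and each list's count below is to be read beside these shares.

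Receptors that feed the pathway held no gene that rose in either pooled comparison against shRenilla. Of 11 tested, 4 fell with the Slpi hairpins (Il1r1, Il1rap, Tlr4 and Tnfrsf1b), 4 fell with the Serpine2 hairpins (Il1r1, Il1rap, Tlr3 and Tlr4), where 18.3% and 10.8% of all genes fell. Among single lines Ltbr, the lymphotoxin beta receptor, rose with shSerpine2-2 (0.36, limma adjusted p = 0.0355), a call lost without either library of shRenilla or of shSerpine2-2 (limma adjusted p up to 0.199). Set against the Serpine2 hairpins, Tlr3 and Tnfrsf12a were higher with the Slpi hairpins (0.20 each), where 7.21% of all genes were higher. In that contrast Il1r1 and Il1rap were lower (-0.15 and -0.17), where 10.3% of all genes were lower. Each of these 4 calls was lost without any of at least 2 libraries. Il1r1, the signalling receptor for interleukin-1, was 1354 and 1241 in shRenilla, 988 and 1007 in shSerpine2-1, 1092 and 1154 in shSerpine2-2, 901 and 979 in shSlpi-1, and 940.5 and 985 in shSlpi-2. All 8 knockdown libraries were below both controls. The change was -0.45 for Slpi (limma adjusted p = 2.32e-05) and -0.29 for Serpine2 (limma adjusted p = 0.00217), the latter lost without shRenilla A (-0.23, limma adjusted p = 0.0632). Il1rap, its co-receptor, changed by -0.42 and -0.25 (limma adjusted p = 7.30e-05 and 0.00874), the Serpine2 call being lost without shRenilla A (-0.16, limma adjusted p = 0.187). Tlr4, the lipopolysaccharide receptor, changed by -0.40 and -0.33 (limma adjusted p = 9.29e-05 and 0.00130), and neither call was lost with any library left out. Tnfrsf1b, a TNF receptor, gave -0.16 with the Slpi hairpins (limma adjusted p = 0.0257), lost without either shRenilla library or shSlpi-1 B (limma adjusted p up to 0.229).

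Ligands were scarce in these cells: only 2 of 9 passed the filter on low values, and Tnf averaged 6.17 and Il1b 2.60 normalized counts over the 10 libraries. Il33, an alarmin of the interleukin-1 family, was 36.9 and 36.4 in shRenilla, 10.02 and 10.45 in shSerpine2-1, 14.9 and 20.7 in shSerpine2-2, 9.07 and 7.28 in shSlpi-1, and 5.80 and 10.4 in shSlpi-2. Both controls were above all other libraries. Its log2 fold change was -2.07 for Slpi (limma adjusted p = 1.33e-04) and -1.38 for Serpine2 (limma adjusted p = 0.00648), and the latter was lost without either shRenilla library (limma adjusted p up to 0.0815). Il1a, the other ligand tested, which encodes interleukin-1 alpha, was 35.8 and 20.9 in shRenilla, 21.2 and 31.3 in shSerpine2-1, 54.4 and 59.7 in shSerpine2-2, 26.2 and 29.1 in shSlpi-1, and 36.7 and 48.3 in shSlpi-2. Both libraries of shSerpine2-2 were above all others. It rose with shSerpine2-2 (1.03, limma adjusted p = 0.0139), a call lost without shRenilla B or either shSerpine2-2 library (limma adjusted p up to 0.188), and neither pooled comparison passed (0.31 for Slpi and 0.47 for Serpine2, limma adjusted p = 0.367 and 0.191).

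Between the receptors and the inhibitors, the pooled comparisons against shRenilla called Tab2, Tab3, Traf6 and Rel. Of 11 kinases and proteins that bind them, 2 fell with the Slpi hairpins, the TAK1-binding adaptors Tab2 (-0.22, limma adjusted p = 5.06e-04) and Tab3 (-0.29, limma adjusted p = 5.36e-04), and 1 fell with the Serpine2 hairpins, Tab3 (-0.18, limma adjusted p = 0.0245). Of 15 adaptors and ubiquitin ligases 1 fell in each comparison, the ligase Traf6 (-0.18 and -0.16, limma adjusted p = 0.0115 and 0.0356). The Serpine2 call of Tab3 was lost without any 1 of 6 libraries (limma adjusted p up to 0.145), and the Traf6 calls without 2 libraries for Slpi (limma adjusted p up to 0.121) and 5 for Serpine2 (limma adjusted p up to 0.253). No kinase passed in either pooled comparison. In single lines the kinase Ikbkb rose with shSlpi-1, Tab1 and the adaptor Myd88 with shSerpine2-2, Traf2 with shSlpi-2 and Traf3 with shSerpine2-1, and the kinases Chuk, Ikbkb and Ikbke were lower in shSlpi-2 than in shSlpi-1. Irak4 was higher in shSlpi-2 than in shSlpi-1, and Traf2 in shSerpine2-2 than in shSerpine2-1. Each of these calls was lost without at least 2 of the 10 libraries. Tab2 and Tab3 fell with shSlpi-1, shSlpi-2 and shSerpine2-2, and Traf6 with shSlpi-2 and shSerpine2-2. The falls with shSlpi-2 (-0.26, -0.35 and -0.26) held with each library left out, and the others were each lost without at least 1 library. Of 5 further NF-kB and IkB family genes, Rel alone rose with the Slpi hairpins (0.21, limma adjusted p = 0.0419), and none passed with the Serpine2 hairpins. The Rel call was lost in 9 of 10 analyses that left out a library. In single lines Rel rose with shSlpi-1 (0.28, limma adjusted p = 0.0409). Nfkbiz fell with shSlpi-2 and shSerpine2-2 (-0.23 and -0.28, limma adjusted p = 0.0161 and 0.00796). It was also lower in shSlpi-2 than in shSlpi-1 and in shSerpine2-2 than in shSerpine2-1 (-0.21 and -0.22, limma adjusted p = 0.0387 and 0.0431). Each of these single-line calls of Rel and Nfkbiz was lost without any of at least 2 libraries.

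Other brakes on the pathway went both ways. Of 9 tested with the Slpi hairpins, Cyld, Fam105b and Tollip rose and Itch, N4bp1 and Tax1bp1 fell. With the Serpine2 hairpins Fam105b and Tollip rose and N4bp1 fell. The Serpine2 call of N4bp1 was lost without any of 8 libraries, and its Slpi call without either shRenilla library. The Slpi call of Cyld was lost without any of 3 libraries. Fam105b, the deubiquitinase of linear ubiquitin chains also called Otulin, was 368 and 335 in shRenilla, 358 and 398 in shSerpine2-1, 535 and 518 in shSerpine2-2, 427 and 434 in shSlpi-1, and 519 and 475 in shSlpi-2. Only the shSerpine2-1 libraries overlapped the controls. It changed by 0.40 with Slpi (limma adjusted p = 7.25e-04) and 0.34 with Serpine2 (limma adjusted p = 0.00434), the latter lost without shRenilla B (0.28, limma adjusted p = 0.110). Tollip, an inhibitor of interleukin-1 receptor signalling, changed by 0.32 (limma adjusted p = 2.81e-04) and 0.21 (limma adjusted p = 0.0116), and the Serpine2 call was lost without 3 libraries (limma adjusted p up to 0.138). The ligase Itch gave -0.22 with the Slpi hairpins (limma adjusted p = 6.41e-04) and Tax1bp1, a ubiquitin-binding adaptor of Tnfaip3, gave -0.21 (limma adjusted p = 0.00322), the latter lost without shRenilla A (limma adjusted p = 0.0532).

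**Figure D4:**
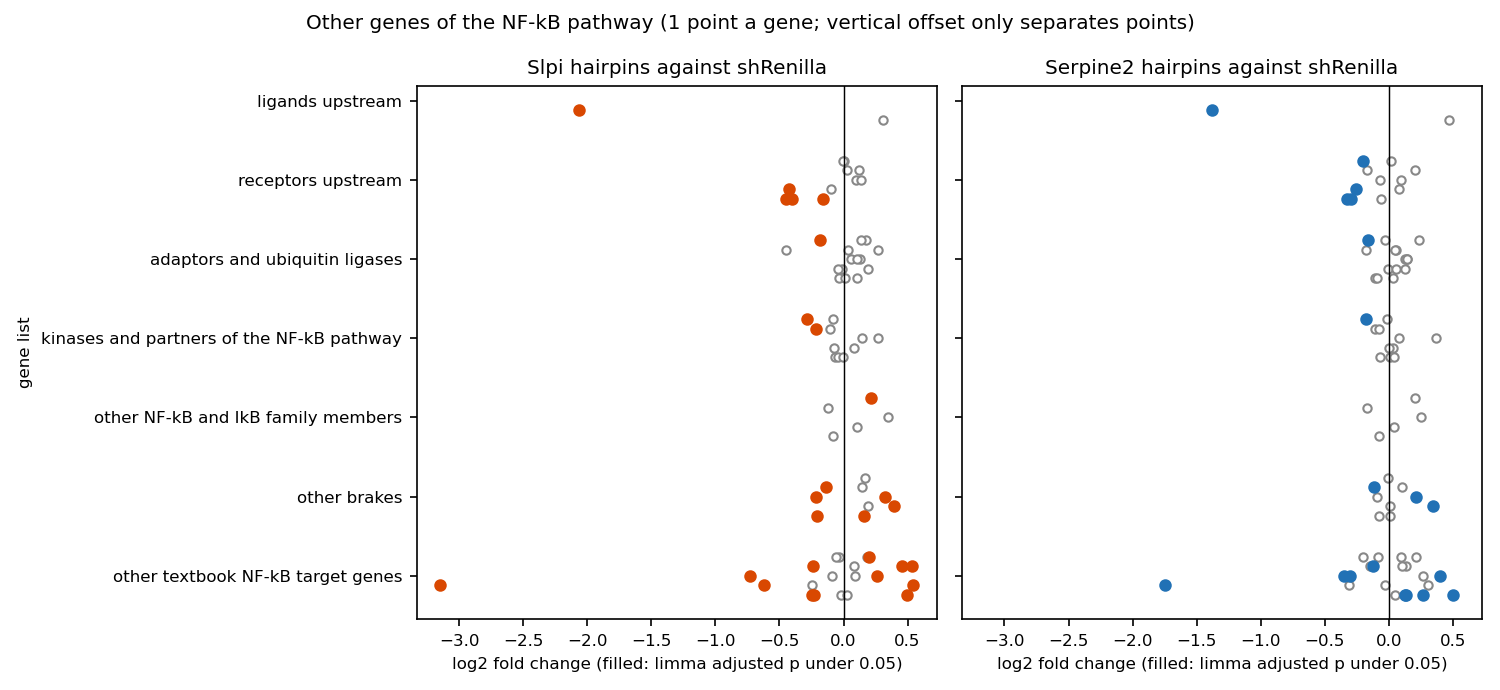
Log2 fold change of each tested gene of the 7 pathway lists (rows) for the Slpi hairpins (left) and the Serpine2 hairpins (right) against shRenilla, 1 point per gene, filled where the limma adjusted p was under 0.05. All filled receptor points lie below 0 in both panels, and filled points of the textbook targets and other brakes lie on both sides of 0.

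Textbook NF-kB target genes outside the 10 members did not move one way. Of 21 tested, 6 rose and 6 fell with the Slpi hairpins (median -0.021), and 5 rose and 4 fell with the Serpine2 hairpins (median 0.098). Among the Serpine2 calls, only that of Cxcl5 held with each library left out. The Slpi calls of Icam1, Cxcl5, Ccl5 and Sod2 were each lost without any of at least 2 libraries, and the other Slpi calls held. Lcn2, an iron-carrier-binding protein of epithelia and neutrophils, was 56.9 and 54.0 in shRenilla, 8.91 and 4.64 in shSerpine2-1, 33.4 and 40.6 in shSerpine2-2, 13.1 and 9.36 in shSlpi-1, and 0.967 and 4.73 in shSlpi-2, of which 0.967 is 1 read. As for Tnfaip2, the shRenilla and shSerpine2-2 libraries were the 4 highest. It changed by -3.15 with Slpi (limma adjusted p = 1.90e-05), by -2.92 with shSerpine2-1 (limma adjusted p = 7.77e-04) and by -0.58 with shSerpine2-2, which did not pass (limma adjusted p = 0.380).

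Chemokine genes differed between hairpins to the same target as well as between targets. Ccl2, a monocyte attractant, was 412 and 431 in shRenilla, 365 and 333 in shSerpine2-1, 862 and 917 in shSerpine2-2, 379 and 336 in shSlpi-1, and 146 and 221 in shSlpi-2. Only shSerpine2-2 was above the controls, and shSlpi-2 was lowest. It fell with the Slpi hairpins (-0.73, limma adjusted p = 1.82e-04) and rose with the Serpine2 hairpins (0.40, limma adjusted p = 0.0237), the latter lost without any of 4 libraries (limma adjusted p up to 0.167). Cxcl5, a neutrophil attractant, averaged 284 in shRenilla, 282 in shSerpine2-1, 575 in shSerpine2-2, 289.8 in shSlpi-1 and 196 in shSlpi-2. Its change with Slpi was -0.25 (limma adjusted p = 0.0418), lost without any of 6 libraries (limma adjusted p up to 0.300) and at 0.033 without both shSlpi-2 libraries (limma adjusted p = 0.839). It was 0.50 with Serpine2 (limma adjusted p = 0.00105). Slpi hairpins were lower than Serpine2 hairpins by -1.13 for Ccl2 (limma adjusted p = 1.29e-06) and by -0.75 for Cxcl5 (limma adjusted p = 5.25e-06). The first hairpins to each target lay closer together, a contrast that was not tested: the means of shSlpi-1 and shSerpine2-1 were 358 and 349 for Ccl2 and 289.8 and 282 for Cxcl5. Against shRenilla, Ccl2 gave -0.24 with shSlpi-1 and -0.27 with shSerpine2-1 (limma adjusted p = 0.261 and 0.234), and -1.23 with shSlpi-2 and 1.08 with shSerpine2-2 (limma adjusted p = 3.21e-06 and 4.84e-05). Ccl5 and Cxcl1 went the other way, being higher with Slpi than with Serpine2 hairpins by 0.68 and 0.32 (limma adjusted p = 0.00429 and 0.0189), the Cxcl1 call being lost without any of 4 libraries (limma adjusted p up to 0.101). Both rose with shSlpi-2 against shRenilla (0.86 and 0.78, limma adjusted p = 0.00268 and 9.58e-05) and did not pass with shSlpi-1 (0.20 and 0.13, limma adjusted p = 0.554 and 0.515).

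Irf1, an interferon regulatory transcription factor, rose with the Slpi hairpins (0.49, limma adjusted p = 2.68e-04) from a mean of 386 in shRenilla to 490.1 in shSlpi-1 and 604 in shSlpi-2. With the Serpine2 hairpins it changed by 0.27 (limma adjusted p = 0.0306), lost without any of 4 libraries (limma adjusted p up to 0.193). Ptgs2, the inducible cyclooxygenase, was among the most abundant targets and averaged 25209 in shRenilla, 22125 in shSerpine2-1, 24228 in shSerpine2-2, 22335 in shSlpi-1 and 20442 in shSlpi-2. It fell with the Slpi hairpins (-0.24, limma adjusted p = 1.94e-04) and with the Serpine2 hairpins (-0.12, limma adjusted p = 0.0343), the latter lost without any of 8 libraries (limma adjusted p up to 0.298).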

How the data were processed

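RNA of clone 4T1-T was sequenced with 76 bp reads in 10 libraries of 5 groups, which were taken from the sample titles. The authors used Bowtie2, HTSeq and DESeq with build mm10, per the submitters' processing notes. Versions, annotation and strand setting were each not given in the sources used here. The authors deposited 1 table of log2 values with a floor of 6.733366499. From the values, these are variance-stabilized, a step no label states. They were inverted to normalized counts, which were whole reads within 0.01 reads for 100% of values. Genes with a mean of at least 10 (12299, all 10 members) entered limma 3.58.1 in R 4.3.3 on log2(normalized count + 1), with 5 group means, eBayes with a trend and two-sided Benjamini-Hochberg adjusted p under 0.05. The members' 10 genes, the pathway lists and the markers were chosen with earlier results of these data known. Named pathway genes are up to 4 per list with the smallest p among those changed with the Slpi hairpins and up to 2 with the Serpine2 hairpins, and other genes that complete a count were named after their values were seen. Exon lengths are from GENCODE M21. The fit was tested on simulated data.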

Additional observations from a re-analysis of the deposited data

Results flagged for a closer look

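Effects of the same kind of contrast differed for 8 member comparisons, each tested directly in limma on the log2 scale. Slpi hairpins differed from Serpine2 hairpins in Tnfaip2 (-0.31, limma adjusted p = 9.01e-05), Nfkb1 (-0.15, limma adjusted p = 0.0146) and Birc3 (-0.17, limma adjusted p = 0.0404), all lower with Slpi hairpins. The hairpins to Slpi differed from each other, shSlpi-2 against shSlpi-1, in Tnip1 (0.27, limma adjusted p = 0.0218) and Tnfaip3 (-0.16, limma adjusted p = 0.0267). The hairpins to Serpine2 differed, shSerpine2-2 against shSerpine2-1, in Tnfaip2 (0.40, limma adjusted p = 4.19e-04), Nfkbia (0.52, limma adjusted p = 0.0237) and Nfkbie (0.32, limma adjusted p = 0.0422). The calls of Tnfaip2 held with each of the 10 libraries left out, while the calls of the other genes were lost without at least 2 libraries each, as given with each gene.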

How the results depend on the processing

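Most member values kept their side of the threshold: of 1750 values under 21 alternative settings, 1628 did, 34 passed where the reported fit did not and 88 no longer passed. Most of these values belong to results that did not pass in the reported fit, so the count says little about the calls. Apart from calls of Tnfaip2 and that of Nfkb2 with shSlpi-2, every member call was lost in at least 1 fit that left out a library. The pooled Serpine2 call of Tnfaip2 was lost in such fits too. Fold changes of 38 values changed sign without passing in either fit. With each hairpin line as 1 unit, chosen after seeing the data, limma called 0 members and 0 genes for Slpi, Serpine2 and Slpi against Serpine2. At an unadjusted p under 0.05 that fit gave 1, 0 and 0 members and 1281, 499 and 419 genes. Without the filter on low values, genes changed by Serpine2 hairpins numbered 1632 (reported fit 2643), by shSerpine2-1 703 (1288) and between Serpine2 hairpins 1133 (1805), and members fell to 1 for shSlpi-1 (2) and to 1 between Serpine2 hairpins (3). With only the groups compared, genes numbered 4176 for Serpine2, 2592 for shSerpine2-1, 3599 between Serpine2 hairpins and 1252 between Slpi hairpins (3204). Members then numbered 4 for shSlpi-1, 2 for shSerpine2-1 (1) and 0 between Slpi hairpins (2), where 3 had an unadjusted p under 0.05 in limma. Without both shSlpi-2 libraries Cxcl5 turned to 0.033 in the Slpi comparison. The causes were not tested. Scaling to total reads without Rn45s, also added later, moved no such count by over 1.5 times.

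Leaving out 1 library at a time, members called ranged from 1 to 5 for Slpi, 0 to 3 for Serpine2, 1 to 3 for Slpi against Serpine2, 1 to 5 for shSlpi-1, 2 to 5 for shSlpi-2, 1 to 2 for shSerpine2-1, 0 to 4 for shSerpine2-2, 0 to 6 between Slpi hairpins and 1 to 3 between Serpine2 hairpins. Genes called ranged from 2401 to 5135, 766 to 3922, 1106 to 3436, 814 to 3320, 3779 to 5509, 304 to 2437, 1610 to 4652, 1539 to 3942 and 404 to 3181 in the same order. Without shRenilla B, members fell to 1 for Slpi, 0 for Serpine2, 2 for shSlpi-2 and 0 for shSerpine2-2. Where limma called 0, the members at an unadjusted p under 0.05 were 2 for Serpine2 and 4 for shSerpine2-2 without shRenilla B, 3 for shSerpine2-2 without shSerpine2-2 A, and 2 between Slpi hairpins without shSlpi-1 B.

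The labels do not say what the letters A and B mark. Differences between A and B correlated between groups at -0.073 to 0.072. No strong shared effect of the letter was thus seen, which does not settle whether libraries were paired. With the letter as a replicate block, 4256 genes changed for Slpi, 2594 for Serpine2 and 2149 for Slpi against Serpine2, and member counts stayed at 4, 3 and 3. The planned edgeR scaling and the edgeR and DESeq2 tests were not run, since the deposited unit is log2. Depth limits Lcn2 in shSlpi-2, where the lower library had 1 read.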

Other observations

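Textbook target genes separated the Serpine2 hairpins from each other. Of 21 tested, 11 were higher with shSerpine2-2 than with shSerpine2-1 and 0 were lower at a limma adjusted p under 0.05, where 7.69% of all genes were higher and 6.98% lower. The median log2 difference of the 21 was 0.34, beside 0.0096 for all genes. The 11 were C3, Ccl2, Ccl5, Csf3, Cxcl1, Cxcl5, Icam1, Ier3, Irf1, Lcn2 and Mmp9. Calls of Ccl5, Cxcl1, Ier3, Irf1 and Lcn2 were each lost without any of at least 2 libraries, and the rest held with each library left out. The list itself was chosen with earlier results of these data known. Icam1, an adhesion molecule for leukocytes, differed by 0.59 (limma adjusted p = 0.00282), and Cxcl1, a neutrophil attractant, by 0.54 (limma adjusted p = 0.00825), the latter lost without any of 3 libraries (limma adjusted p up to 0.116). Between the Slpi hairpins 5 targets were higher with shSlpi-2 and 5 lower, where 12.3% and 13.7% of all genes were. Icam1 and Cxcl1 were picked out after their values were seen.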
